A study of Mus musculus with 14 samples.

Results

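The genes described here are the 33 genes of hepatic glucose handling among the 17656 genes in the files, taken by symbol, and all 33 were present. They fall into 6 genes of glucose production, 6 genes of glucose uptake and first phosphorylation, 15 genes of glycolysis and its control, and 6 genes of glycogen. Their mRNA was measured by bulk RNA-seq in the livers of 8-week-old C57BL/6 mice killed 8 h after an injection into the tail vein. Wild-type (WT) mice and mice labelled as Ythdf1 knockout (KO; a whole-body deletion of YTHDF1, a reader of N6-methyladenosine in mRNA) received saline or concanavalin A (ConA, a plant lectin that triggers an immune-mediated hepatitis) at 8 mg/kg. There were 3 WT and 3 KO mice given saline, and 4 WT and 4 KO mice given ConA. The comparisons asked how ConA injury changed these genes in each genotype and whether loss of YTHDF1 altered them.

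The liver supplies glucose to the blood by breaking down glycogen and by gluconeogenesis, the synthesis of glucose from lactate, glycerol and amino acids. Gluconeogenesis runs through pyruvate carboxylase, phosphoenolpyruvate carboxykinase, fructose-1,6-bisphosphatase and glucose-6-phosphatase, whereas glycolysis, the opposite route, is gated by hexokinases, phosphofructokinase and pyruvate kinase. Hepatocytes use their own forms of several of these proteins (GLUT2, liver pyruvate kinase), and proliferating cells and leukocytes use others (GLUT1, hexokinases of high affinity, pyruvate kinase M).

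Values are TPM (transcript abundance scaled to a fixed library total), a level per transcript length within a library, so levels of different genes can be set side by side. Differences were tested with limma on log2(TPM + 1), a scale that understates the change of genes of low level, and a gene was called when its Benjamini-Hochberg adjusted p over all genes tested was under 0.05. Replicates 2 and 3 of the WT saline group were closer to each other than any other pair of replicates: the median absolute log2 ratio between them was 0.0625 over the members, while the remaining 17 pairs gave 0.122 to 0.549. With these 2 livers averaged, counts that rest on the WT saline group are given where they changed by over 1.5 times. Replicate 3 of each ConA group stood apart in scale, with median-ratio size factors of 0.791 and 0.847 against 0.966 to 1.195 in the other 12 libraries. Whole-gene Ythdf1 TPM was 12.0 to 13.9 in WT saline and 18.4 to 20.8 in KO saline livers, and therefore does not check the knockout label. Hepatocyte markers (9 genes) summed to 109466 to 135956 TPM in saline and 54175 to 82479 TPM in ConA livers.

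After ConA, transcripts of the glucose-6-phosphatase gene G6pc, of Pck1, of the glucose transporter gene Slc2a2 and of the glycogen synthase gene Gys2 were lower, and those of GLUT1, pyruvate kinase M, lactate dehydrogenase A and the inducible form of phosphofructokinase-2 were higher, in both genotypes. In WT livers 27 of the 33 members were called (15 higher, 12 lower), where 53% of the 10768 genes tested were called (22% higher, 31% lower). Saline and ConA ranges were apart for 27 members, against 58% of genes. With WT saline replicates 2 and 3 averaged, 26 members were called (15 higher, 11 lower). In KO livers 30 of 33 were called (17 higher, 13 lower), against 64.6% of all 10988 genes (33.9% higher, 30.7% lower). Ranges were apart for 30 members, against 64.3% of genes. The median difference of the members on the log2 scale was 0.24 in WT and 0.37 in KO livers, beside -0.07 and 0.07 over all genes, since rises and falls were mixed. Hk1, Hk2, Hk3 and Pfkp passed the filter on low values only through the ConA livers, so they had to differ; of the other 29 members, each at 1 TPM or more in every library, 23 were called in WT and 26 in KO livers, against 51% and 63.1% of all such genes. The comparisons of WT and of KO livers share no library. Between them 15 members, with Hk1, Hk2, Hk3 and Pfkp included, were called higher in both, 12 lower in both and 0 in opposite directions. The share of all genes called alike in both comparisons was not computed, so these counts stand without a background. In bulk tissue, fewer cells of a type and less RNA per cell cannot be told apart.

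**Figure D1:**
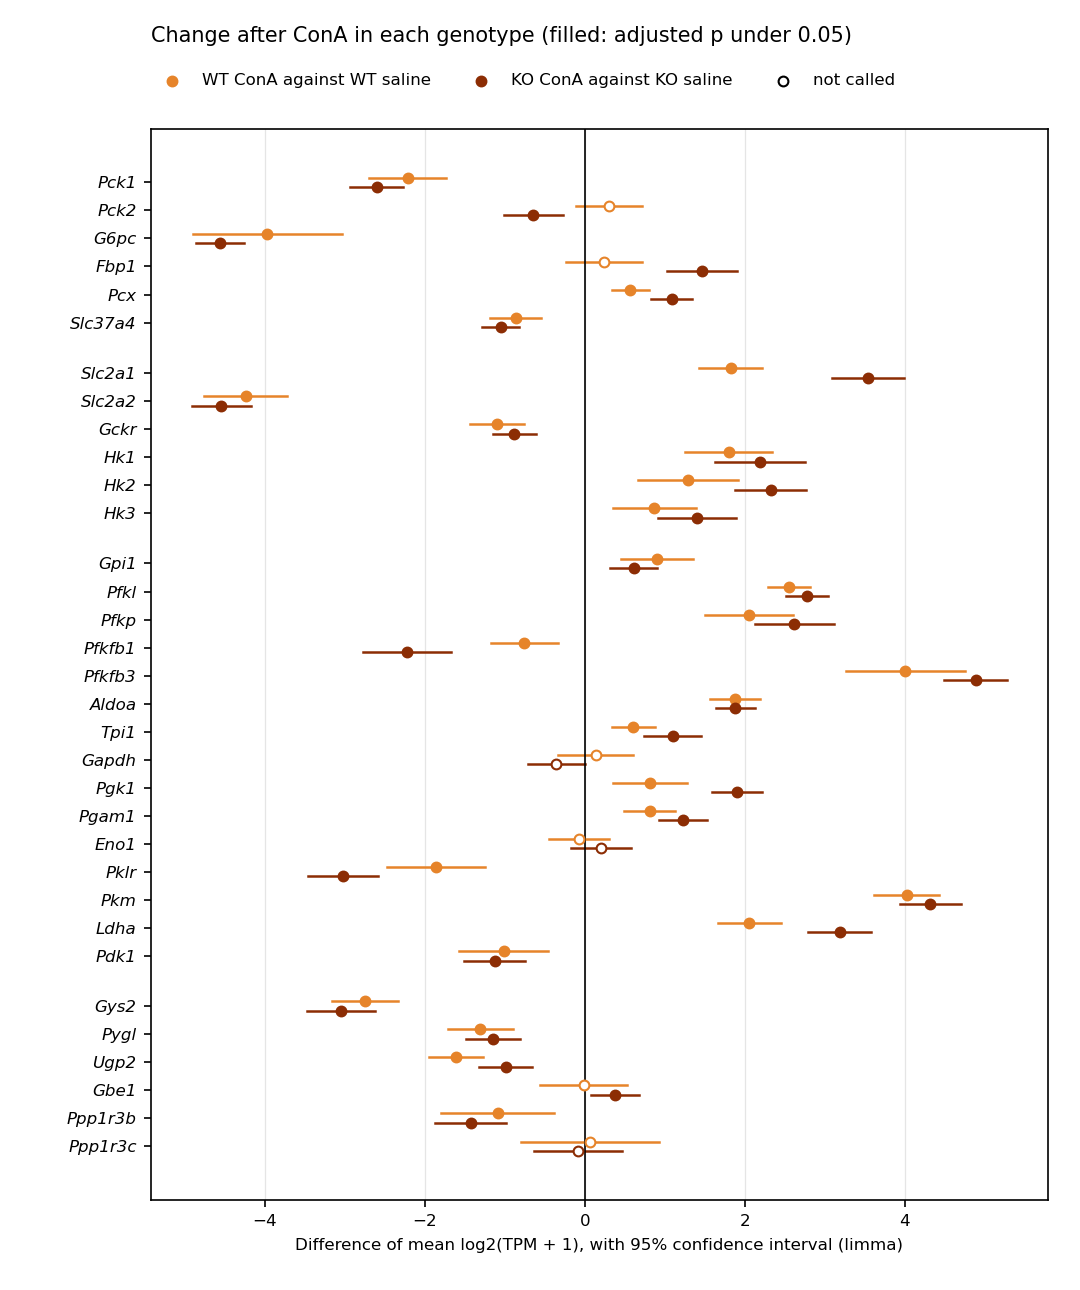
Difference of mean log2(TPM + 1) between ConA and saline livers for each of the 33 genes (x axis) in WT (orange) and KO (brown) mice, with 95% confidence intervals from limma; filled points had an adjusted p under 0.05, which for Hk1, Hk2, Hk3 and Pfkp is no test, as the filter let them pass only through the ConA livers. Glucose production and glycogen genes lie mostly left of 0, and most glycolytic genes right of 0, with Pfkfb3 and Pkm at 4 or more and Slc2a2 and G6pc near or below -4.

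Promoter sequence was set beside these directions, as members that moved together can be compared in the letters before their start sites. RefSeq start sites on GRCm38.p6 were available for 31 of the 33 members (not Gys2 and Ppp1r3b), and 5 motifs were searched on both strands in the 250 bases before each start: ACGTG (the core of hypoxia-response elements), CACGTG (an E-box, which contains ACGTG on each strand), TGACGTCA (the cAMP-response element), GTAAACA (a forkhead site) and TATAAA (the TATA box). ACGTG was present before a start of 10 of the 15 members called higher in both genotypes, Hk1, Hk2, Hk3 and Pfkp included (Aldoa, Hk2, Hk3, Ldha, Pcx, Pfkfb3, Pgam1, Pgk1, Pkm and Slc2a1) and of 2 of the 10 called lower in both that had a promoter entry (Pygl and Ugp2), where 18.5% of all 27025 genes have it. TATAAA was present in 0 of the 15 and in 4 of the 10 (G6pc, Pfkfb1, Pklr and Slc37a4), against 14.3% of all genes. In Pfkfb1 it began 193 bases before the third of its 4 starts. A gene counted if the window of any of its starts held the motif: the 15 members had 22 windows, the 10 had 18 and all 27025 genes had 32851. CACGTG was found in 3 of the 15 and 0 of the 10 (6.86% of genes), TGACGTCA only in Ldha (1.77%), and GTAAACA in 0 members (3.54%). The windows of the members that rose were richer in G and C (median 62.2%) than those of members that fell (52.6%) and of all promoters (52.4%). These counts describe letters in a window: no binding was measured, and motif, base composition and direction of change cannot be told apart with 25 genes.

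The promoters of 3 glycolytic genes that rose, with the motifs on either strand in capitals, are shown first, each 250 bases that end at the base before the start site. The Ldha window (chr7:46845554-46845803, strand +) lies before the first of its 2 RefSeq starts and inside the GENCODE gene but in none of its exons. It holds CACGTG at 145 and 48 bases before the start, a further ACGTG at 34 and TGACGTCA at 12. The Pgk1 (chrX:106186850-106187099, strand +) and Hk2 (chr6:82774455-82774704, strand -) windows overlap no GENCODE gene and hold 2 ACGTG each.
Ldha: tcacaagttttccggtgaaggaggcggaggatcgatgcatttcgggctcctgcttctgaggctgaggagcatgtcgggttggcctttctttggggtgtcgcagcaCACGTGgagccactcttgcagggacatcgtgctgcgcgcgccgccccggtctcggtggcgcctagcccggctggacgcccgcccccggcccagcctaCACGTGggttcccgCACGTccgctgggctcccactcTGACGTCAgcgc
Pgk1: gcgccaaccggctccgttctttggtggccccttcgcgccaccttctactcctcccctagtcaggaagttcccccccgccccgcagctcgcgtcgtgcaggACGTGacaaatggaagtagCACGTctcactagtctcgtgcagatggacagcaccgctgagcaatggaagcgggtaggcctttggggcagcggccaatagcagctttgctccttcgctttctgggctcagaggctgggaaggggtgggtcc
Hk2: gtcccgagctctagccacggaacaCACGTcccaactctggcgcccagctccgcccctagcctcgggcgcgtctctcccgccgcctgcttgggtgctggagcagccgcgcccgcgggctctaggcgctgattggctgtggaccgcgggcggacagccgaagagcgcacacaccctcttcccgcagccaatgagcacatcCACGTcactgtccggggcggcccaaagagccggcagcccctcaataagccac

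The corresponding stretches of 2 genes that fell hold no exact match to any of the 5 motifs and so carry no capitals. Close variants were not searched, and the Pck1 stretch holds ttacgtca, which is near to TGACGTCA. That of Pck1 (chr2:173152823-173153047, strand +) was cut back to the 225 bases before the first GENCODE exon, and that of Slc2a2 (chr3:28697653-28697902, strand +) is 250 bases.
Pck1: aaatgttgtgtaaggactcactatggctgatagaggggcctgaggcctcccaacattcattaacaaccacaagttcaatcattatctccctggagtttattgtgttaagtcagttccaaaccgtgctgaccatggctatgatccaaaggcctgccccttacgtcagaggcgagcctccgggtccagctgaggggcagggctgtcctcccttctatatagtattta
Slc2a2: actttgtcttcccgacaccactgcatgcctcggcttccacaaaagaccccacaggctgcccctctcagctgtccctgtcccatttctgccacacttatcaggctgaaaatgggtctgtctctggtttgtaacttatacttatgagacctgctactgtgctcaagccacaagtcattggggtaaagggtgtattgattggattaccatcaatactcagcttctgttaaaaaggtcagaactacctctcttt

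Short stretches around 1 motif each set ACGTG in Slc2a1 (chr4:119108699-119108723, strand +), which rose, beside TATAAA in 3 genes that fell, G6pc (chr11:101367677-101367702, strand +), Pklr (chr3:89136582-89136607, strand +) and Slc37a4 (chr9:44398312-44398337, strand +). TATAAA began 29 bases before the only start of G6pc, 31 before the second of the 2 starts of Pklr and 32 before the third of the 3 starts of Slc37a4. The windows of all 4 overlap a GENCODE exon of their own gene, and the TATAAA of G6pc lies inside it.
Slc2a1: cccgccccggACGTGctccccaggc
G6pc: atccagggcaTATAAAacaggggcaa
Pklr: aaaggcagagTATAAAgcagacccac
Slc37a4: agaaggcggcTATAAAgagcctgggt

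After ConA, 31% of all genes tested were called lower and 22% higher in WT livers, and 30.7% lower and 33.9% higher in KO livers. Of the 6 glucose production genes, 3 fell and 1 rose in WT livers and 4 fell and 2 rose in KO livers. The largest fall was in G6pc (NCBI gene 14377, chr11:101367716-101377903), the catalytic subunit of glucose-6-phosphatase that releases free glucose: it was at 117, 122 and 121 TPM in WT saline livers and 148, 153 and 179 TPM in KO saline livers. Under ConA, G6pc was at 3.22, 6.85, 4.86 and 17.4 TPM in WT and 6.86, 5.59, 5.12 and 5.77 TPM in KO livers. No ConA liver came near the saline range, although WT ConA replicate 4 was higher than the other 7 ConA livers. Mean TPM was 14.8-fold lower after ConA in WT mice (log2 difference -3.97, SE 0.41, adjusted p = 5.21e-05) and 27.4-fold lower in KO mice (-4.56, SE 0.13, adjusted p = 1.4e-09). Without WT ConA replicate 4 the fold in WT mice was 24.1.

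Pck1 (NCBI gene 18534, chr2:173153073-173159274), the cytosolic phosphoenolpyruvate carboxykinase and a main control point of gluconeogenesis, was one of the most abundant members in saline livers, at 2917, 2982 and 2903 TPM in WT saline livers and 3945, 3338 and 3481 TPM in KO saline livers. Under ConA, Pck1 was at 649, 911, 436 and 617 TPM in WT and 626, 607, 462 and 691 TPM in KO livers. Saline and ConA ranges were well apart in both genotypes, with 4.49-fold lower mean TPM in WT (-2.21, SE 0.21, adjusted p = 3.41e-05) and 6.01-fold lower in KO livers (-2.60, SE 0.15, adjusted p = 1.58e-07). Slc37a4, the transporter that carries glucose 6-phosphate to the phosphatase, fell by 0.86 in WT (adjusted p = 0.000773) and by 1.05 in KO livers (adjusted p = 8.52e-06) on the log2 scale. Its level was 134 to 193 TPM in saline and 61.2 to 125 TPM in ConA livers.

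Pyruvate carboxylase transcripts rose in both genotypes, and those of fructose-1,6-bisphosphatase rose in KO livers. Fbp1 (NCBI gene 14121, chr13:62864753-62888298) was at 659, 882 and 857 TPM in WT saline livers and 399.6, 434 and 762 TPM in KO saline livers. Under ConA, Fbp1 was at 788, 1154, 713 and 1183 TPM in WT and 1297, 1421, 1421 and 1491 TPM in KO livers. The 2 WT groups overlapped, with a log2 difference of 0.24 (95% interval -0.23 to 0.71, adjusted p = 0.363), whereas every KO ConA liver was above every other liver of the study and the KO difference was 1.46 (SE 0.20, adjusted p = 7.53e-05). Pcx (NCBI gene 18563, chr19:4510472-4621752), the mitochondrial enzyme that makes oxaloacetate from pyruvate, was at 159, 153 and 149 TPM in WT saline livers and 121, 119 and 147 TPM in KO saline livers. Under ConA, Pcx was at 234, 225, 227 and 228 TPM in WT and 278, 288, 268 and 259 TPM in KO livers. All 8 ConA livers were above all 6 saline livers, and Pcx rose by 0.57 in WT (SE 0.10, adjusted p = 0.00138) and by 1.08 in KO livers (SE 0.11, adjusted p = 1.2e-05). Pck2, the mitochondrial isoform of the carboxykinase, was scarce throughout. It was at 2.43, 1.38 and 1.93 TPM in WT saline and 2.14, 2.19, 3.47 and 2.57 in WT ConA livers, which overlapped (0.30, 95% interval -0.11 to 0.72, adjusted p = 0.192). In KO livers it fell from 3.13, 1.94 and 2.52 TPM to 1.08, 1.38, 1.51 and 1.02 TPM (-0.64, SE 0.17, adjusted p = 0.00582).

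Of the 6 genes of glucose uptake and first phosphorylation, Slc2a1, Slc2a2 and Gckr could have gone either way in the test, and in both genotypes Slc2a1 was called higher and the other two lower after ConA. Hk1, Hk2 and Hk3 passed the filter only through the ConA livers and are given as levels without a test. Slc2a2 (NCBI gene 20526, chr3:28697903-28728361), which encodes GLUT2, the bidirectional glucose transporter of hepatocytes, was at 185, 168 and 184 TPM in WT saline livers and 167, 194 and 166 TPM in KO saline livers. Under ConA, Slc2a2 was at 12.7, 5.64, 7.29 and 10.01 TPM in WT and 5.28, 5.47, 7.41 and 8.57 TPM in KO livers. Every ConA liver was far below every saline liver. Its mean TPM was 20.1-fold lower in WT (-4.24, SE 0.23, adjusted p = 1.27e-06) and 26.3-fold lower in KO livers (-4.54, SE 0.17, adjusted p = 7.55e-09). Slc2a1 (NCBI gene 20525, chr4:119108745-119137330), which encodes the widely expressed GLUT1, moved in the opposite direction, at 7.37, 8.64 and 8.95 TPM in WT saline livers and 6.44, 4.96 and 6.65 TPM in KO saline livers. Under ConA, Slc2a1 was at 35.6, 33.8, 23.6 and 36.5 TPM in WT and 58.2, 70.4, 106 and 94.3 TPM in KO livers. The lowest KO ConA value lay above the highest WT ConA value, and both ConA groups lay above all saline livers. The rise was 3.89-fold in mean TPM in WT (1.82, SE 0.17, adjusted p = 3.12e-05) and 13.7-fold in KO livers (3.54, SE 0.20, adjusted p = 1.52e-07).

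The hexokinases with high affinity for glucose were nearly absent from saline livers. Hk2, the inducible form, was at 0.25, 0.13 and 0.13 TPM in WT saline livers and 0.12, 0.03 and 0.12 TPM in KO saline livers. Under ConA, Hk2 was at 3.70, 2.02, 0.77 and 1.64 TPM in WT and 4.67, 4.30, 6.39 and 2.98 TPM in KO livers. The ConA livers were all higher than the saline livers. Hk1, present in most tissues, was at 0.24 to 1.12 TPM in saline and 3.04 to 9.48 TPM in ConA livers. Hk3, the form known from granulocytes and macrophages, was at 0.47 to 1.3 TPM in saline and 1.62 to 4.66 TPM in ConA livers. Gckr fell by 1.10 in WT and by 0.88 in KO livers (adjusted p = 0.000258 and 9.4e-05), with 85.0 to 111 TPM in saline and 43.9 to 63.3 TPM in ConA livers.

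**Figure D2:**
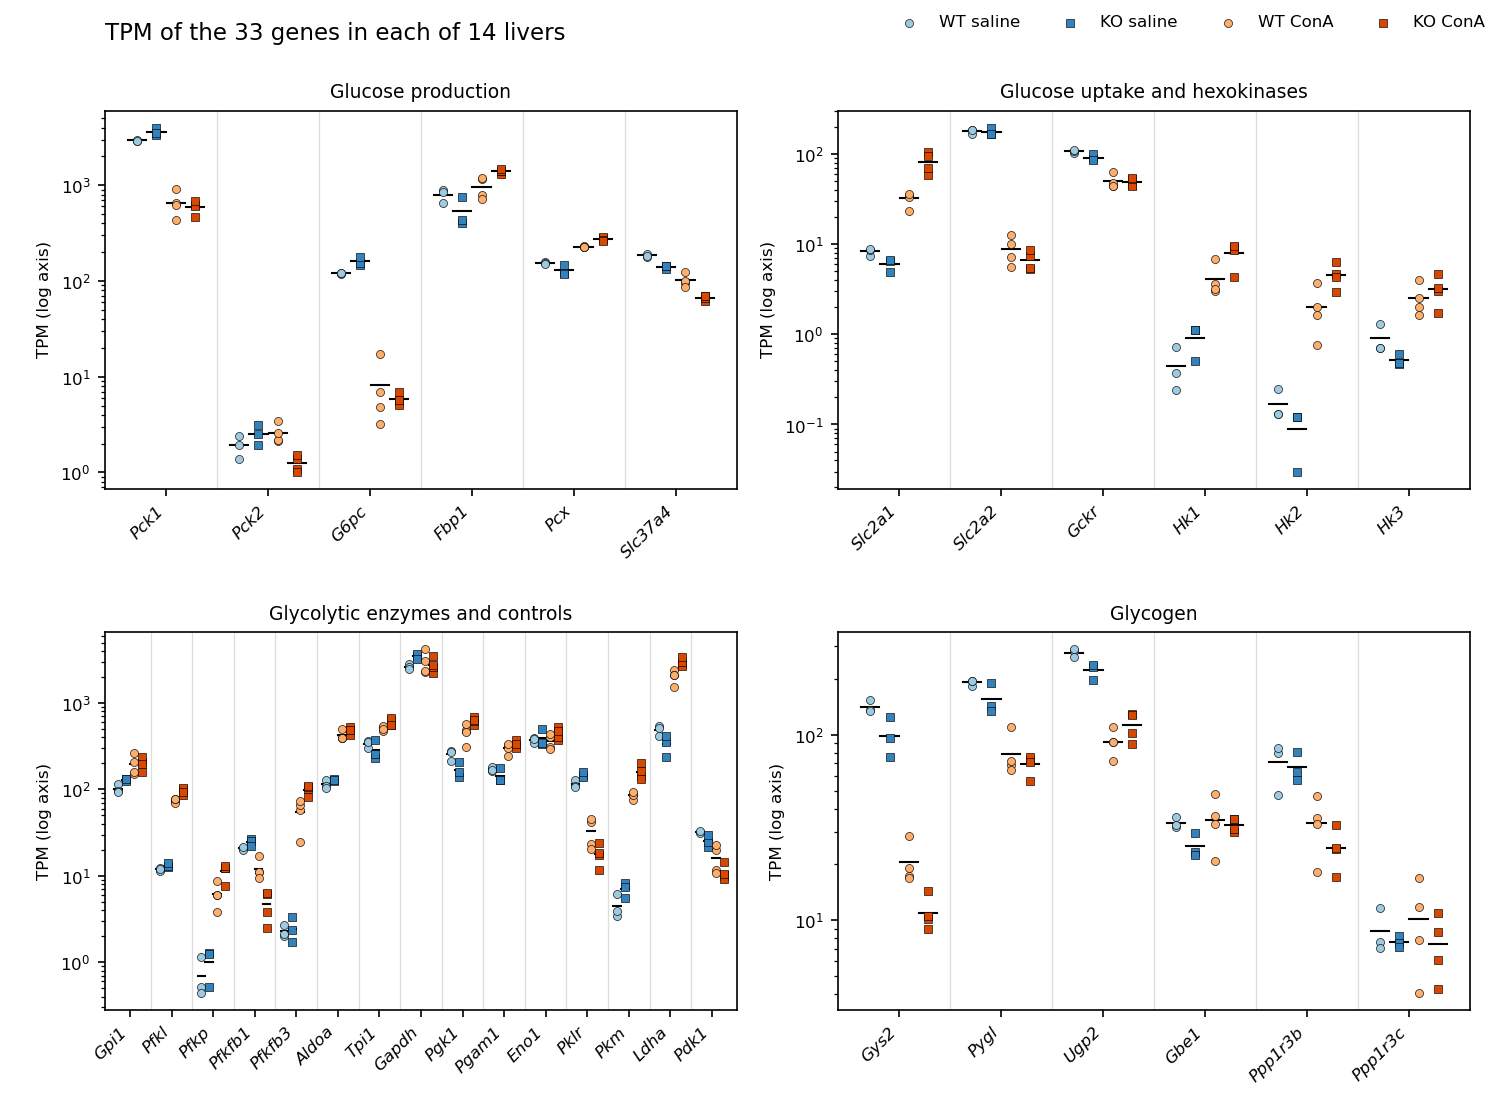
TPM of each of the 33 genes (log axis) in each of the 14 livers, by role; circles are WT and squares KO livers, blue saline and orange to red ConA, and the black line is the group mean. Slc2a1, Hk2, Pfkl, Pfkfb3, Aldoa, Pkm and Ldha show ConA livers above all saline livers, and G6pc, Pck1, Slc2a2, Gys2 and Pklr show them below.

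Among the 15 glycolytic enzymes and controls, 10 were called higher and 3 lower after ConA in each genotype. Of the 10, Pfkp passed the filter only through the ConA livers. Over all genes tested, 22% were called higher and 31% lower in WT livers, and 33.9% higher and 30.7% lower in KO livers. Pfkfb3 (NCBI gene 170768, chr2:11471430-11554071), the inducible phosphofructokinase-2 that makes the activator fructose 2,6-bisphosphate, was at 2.67, 2.0 and 2.14 TPM in WT saline livers and 2.33, 1.70 and 3.31 TPM in KO saline livers. Under ConA, Pfkfb3 was at 57.2, 66.5, 24.8 and 73.1 TPM in WT and 81.2, 101, 106 and 109 TPM in KO livers. No ConA liver overlapped the saline range. Pfkfb3 was 24.4-fold higher in mean TPM in WT (4.01, SE 0.33, adjusted p = 1.37e-05) and 40.7-fold higher in KO livers (4.88, SE 0.18, adjusted p = 6.61e-09), and WT ConA replicate 3 was the lowest of the ConA livers. Pfkfb1 (NCBI gene 18639, chrX:150587445-150643878), the liver form of the same bifunctional enzyme, was at 20.7, 19.9 and 21.5 TPM in WT saline livers and 26.8, 25.2 and 21.9 TPM in KO saline livers. Under ConA, Pfkfb1 was at 11.2, 11.1, 16.8 and 9.45 TPM in WT and 6.19, 6.39, 2.50 and 3.84 TPM in KO livers. It fell in both genotypes without overlap between saline and ConA livers, by 0.75 in WT (SE 0.19, adjusted p = 0.0073) and by 2.22 in KO livers (SE 0.25, adjusted p = 1.86e-05).

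Of the genes of phosphofructokinase-1, the committed step, Pfkl rose, while Pfkm, the muscle subunit and outside the 33 genes, fell. Pfkl (NCBI gene 18641, chr10:77986947-78009807), the liver subunit, was at 11.2, 12.4 and 11.9 TPM in WT saline livers and 12.5, 12.8 and 14 TPM in KO saline livers. Under ConA, Pfkl was at 73.1, 70.0, 78.4 and 76.6 TPM in WT and 86.5, 101, 104 and 92.5 TPM in KO livers. The 14 values fell into separate saline and ConA ranges with little spread within each, and the log2 differences were 2.55 in WT (SE 0.12, adjusted p = 5.55e-07) and 2.78 in KO livers (SE 0.12, adjusted p = 1.87e-08). Pfkp, the platelet subunit, was at 0.44 to 1.26 TPM in saline and 3.83 to 13.1 TPM in ConA livers, a difference given without a test since Pfkp passed the filter only through the ConA livers. Pfkm was at 5.20 to 8.28 TPM in saline and 1.63 to 2.15 TPM in ConA livers.

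At the last steps, the 2 pyruvate kinase genes moved apart. Pkm (NCBI gene 18746, chr9:59656576-59679372), whose products serve muscle and proliferating cells, was at 6.08, 3.38 and 3.87 TPM in WT saline livers and 8.17, 5.47 and 7.50 TPM in KO saline livers. Under ConA, Pkm was at 87.1, 76.0, 86 and 94.4 TPM in WT and 142, 163, 201 and 133 TPM in KO livers. No ConA value came near the saline values. Pkm rose 19.3-fold in mean TPM in WT livers (4.02, SE 0.18, adjusted p = 5.31e-07), and in KO livers by 4.32 (SE 0.17, adjusted p = 1.33e-08). Pklr (NCBI gene 18770, chr3:89136122-89146815), the liver and red cell form, was at 129, 109 and 106 TPM in WT saline livers and 146, 139 and 159.5 TPM in KO saline livers. Under ConA, Pklr was at 41.7, 23.5, 44.9 and 20.3 TPM in WT and 11.7, 17.4, 24.2 and 18.4 TPM in KO livers. The ConA livers were all below the saline livers, and Pklr fell by 1.86 in WT (SE 0.27, adjusted p = 0.000386) and by 3.02 in KO livers (SE 0.20, adjusted p = 3.83e-07). Ldha (NCBI gene 16828, chr7:46842274-46855627), which turns pyruvate to lactate, was at 410.3, 545 and 514 TPM in WT saline livers and 236, 358 and 409.8 TPM in KO saline livers. Under ConA, Ldha was at 2425, 2137, 1541 and 2111 TPM in WT and 2828, 2719, 2980.1 and 3384 TPM in KO livers. Every ConA liver exceeded every saline liver, and every KO liver given ConA exceeded the WT ones. Ldha became one of the most abundant members, 4.19-fold higher in mean TPM in WT (2.06, SE 0.18, adjusted p = 1.65e-05) and 8.90-fold higher in KO livers (3.18, SE 0.18, adjusted p = 1.38e-07). Pdk1, a kinase that shuts off pyruvate dehydrogenase, fell by 1.01 and by 1.13 (adjusted p = 0.00708 and 0.000189), with 21.6 to 32.9 TPM in saline and 9.29 to 22.5 TPM in ConA livers.

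Enzymes between these control points rose as well. Aldoa, the widely expressed aldolase, rose by 1.88 in WT and by 1.88 in KO livers (adjusted p = 7.32e-06 and 1.78e-07), with 104 to 133 TPM in saline and 394 to 524 TPM in ConA livers. Pgk1 (NCBI gene 18655, chrX:106187100-106203699), phosphoglycerate kinase, was at 212, 276 and 272 TPM in WT saline livers and 140.4, 158 and 206 TPM in KO saline livers. Under ConA, Pgk1 was at 483, 459, 311 and 565 TPM in WT and 556, 682, 615 and 634 TPM in KO livers. The ConA livers were all above the saline livers, with WT ConA replicate 3 nearest to them. Pgk1 rose by 0.82 in WT (SE 0.20, adjusted p = 0.00781) and by 1.90 in KO livers (SE 0.14, adjusted p = 1.01e-06). Rises of 0.60 and 1.10 were measured for Tpi1 (triose-phosphate isomerase; adjusted p = 0.00222 and 0.000138). For Pgam1 (phosphoglycerate mutase) the rises were 0.81 and 1.23 (adjusted p = 0.00106 and 1.84e-05), and for Gpi1 (glucose-6-phosphate isomerase) they were 0.91 and 0.61 (adjusted p = 0.00413 and 0.002).

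Gapdh (glyceraldehyde-3-phosphate dehydrogenase) and Eno1 (enolase) passed the test in neither genotype. Gapdh ranged over 2461 to 3699 TPM in saline and 2213 to 4167 TPM in ConA livers, with intervals of the log2 difference of -0.33 to 0.60 in WT and -0.70 to -0.0032 in KO mice (adjusted p = 0.609 and 0.0712). Eno1 ranged over 333 to 495 and 291 to 532 TPM, with intervals of -0.45 to 0.31 and -0.17 to 0.58 (adjusted p = 0.751 and 0.303). These are also the genes whose reads are least specific: of the 50-base stretches of the longest coding transcript (reads were 50 bases), 17.5% for Gapdh, 27.8% for Eno1, 32% for Pgk1, 58.5% for Pgam1 and 65.6% for Pkm occur in no other GENCODE gene, and their values depend on how the authors' counting shared reads with pseudogenes and paralogs.

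Glycogen genes fell in 4 of 6 cases in WT livers with 0 rising, and in 4 of 6 in KO livers with 1 rising. Called in either direction were 66.7% of them in WT and 83.3% in KO livers, against 53% and 64.6% of all genes tested. Gys2 (NCBI gene 232493, chr6:142422612-142473130), the liver glycogen synthase, was at 153, 137 and 133 TPM in WT saline livers and 76.0, 125 and 95.6 TPM in KO saline livers. Under ConA, Gys2 was at 17.4, 17.0, 19.2 and 28.4 TPM in WT and 10.1, 9.0, 10.6 and 14.3 TPM in KO livers. No ConA liver reached a saline value, and Gys2 fell by 2.75 in WT (SE 0.18, adjusted p = 4.13e-06) and by 3.05 in KO livers (SE 0.19, adjusted p = 2.95e-07), a 6.88-fold and 8.98-fold lower mean TPM. The enzyme that breaks glycogen down, liver glycogen phosphorylase (Pygl), fell too, by 1.3 and by 1.14 (adjusted p = 0.000305 and 6.59e-05), with 134 to 195 TPM in saline and 56.2 to 109 TPM in ConA livers. Ugp2, which makes the UDP-glucose used for glycogen, fell by 1.60 and by 0.99 (adjusted p = 2.77e-05 and 0.000173), with 197 to 288 TPM in saline and 72.3 to 129.7 TPM in ConA livers.

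Ppp1r3b, the subunit that brings protein phosphatase 1 to liver glycogen, was at 47.4, 80.0 and 85.1 TPM in WT saline livers and 81.0, 62.9 and 56.8 TPM in KO saline livers. Under ConA, Ppp1r3b was at 35.7, 32.9, 18.2 and 47.0 TPM in WT and 24.2, 32.6, 17.0 and 24.5 TPM in KO livers. WT saline replicate 1 was the lowest of the saline livers and WT ConA replicate 4 almost reached it. Ppp1r3b fell by 1.09 in WT (SE 0.31, adjusted p = 0.0152), a call that was lost without WT saline replicate 2, without WT saline replicate 3 or with these 2 averaged (adjusted p up to 0.0659), and by 1.43 in KO livers (SE 0.20, adjusted p = 0.000102). Ppp1r3c, a second glycogen-targeting subunit, was at 7.07 to 11.6 TPM in saline and 4.06 to 17.0 TPM in ConA livers, with intervals of -0.79 to 0.93 in WT and -0.64 to 0.46 in KO mice that span 0 (adjusted p = 0.895 and 0.766). Gbe1, the branching enzyme, was at 31.9 to 35.9 and 20.8 to 48.1 TPM in WT saline and ConA livers (95% interval -0.56 to 0.53, adjusted p = 0.969). In KO livers it rose by 0.37 (SE 0.14, adjusted p = 0.032), with 22.6 to 29.5 TPM under saline and 29.8 to 35.3 TPM under ConA, a call that was lost in 7 of 15 alternatives, among them each library rescaled and the fits without KO saline replicate 1, KO saline replicate 2, KO ConA replicate 2 or KO ConA replicate 4.

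Summed over each role, the 6 glucose production genes held 4033 to 4332 TPM (WT) and 4187 to 4751 TPM (KO) under saline, and 1509.8 to 2399.8 TPM (WT) and 2228 to 2519 TPM (KO) under ConA. For the 15 glycolytic genes the sums were 4533 to 4777 TPM (WT) and 5059 to 5429 TPM (KO) under saline, and 6789.9 to 8283 TPM (WT) and 7778 to 9794 TPM (KO) under ConA. The 6 glycogen genes held 709 to 744 TPM (WT) and 528 to 616 TPM (KO) under saline, and 199 to 333 TPM (WT) and 221 to 289 TPM (KO) under ConA. Saline and ConA livers did not overlap in any of these 3 sums, which were higher after ConA for glycolysis and lower for the other roles. They are descriptions without a test.

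Where the liver form and another form of one protein were both measured, the share of the other form per liver was computed as a description. The share of Pkm in Pkm plus Pklr was 3.0 to 4.49% (WT) and 3.78 to 5.29% (KO) under saline, and 65.7 to 82.3% (WT) and 87.9 to 92.4% (KO) under ConA. The share of Slc2a1 in Slc2a1 plus Slc2a2 was 3.82 to 4.88% (WT) and 2.50 to 3.85% (KO) under saline, and 73.7 to 85.7% (WT) and 91.7 to 93.5% (KO) under ConA. For Pfkfb3 in Pfkfb3 plus Pfkfb1 it was 9.04 to 11.4% (WT) and 6.32 to 13.1% (KO) under saline, and 59.5 to 88.6% (WT) and 92.9 to 97.7% (KO) under ConA. In these 3 pairs all ConA livers lay far above the saline livers, and every KO liver given ConA lay above every WT liver given ConA. The share of Pfkp in Pfkp plus Pfkl, with Pfkm left out, was 3.57 to 9.21% (WT) and 3.82 to 9.18% (KO) under saline, and 4.66 to 10.7% (WT) and 7.63 to 12.4% (KO) under ConA, with overlap between saline and ConA livers in both genotypes.

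**Figure D3:**
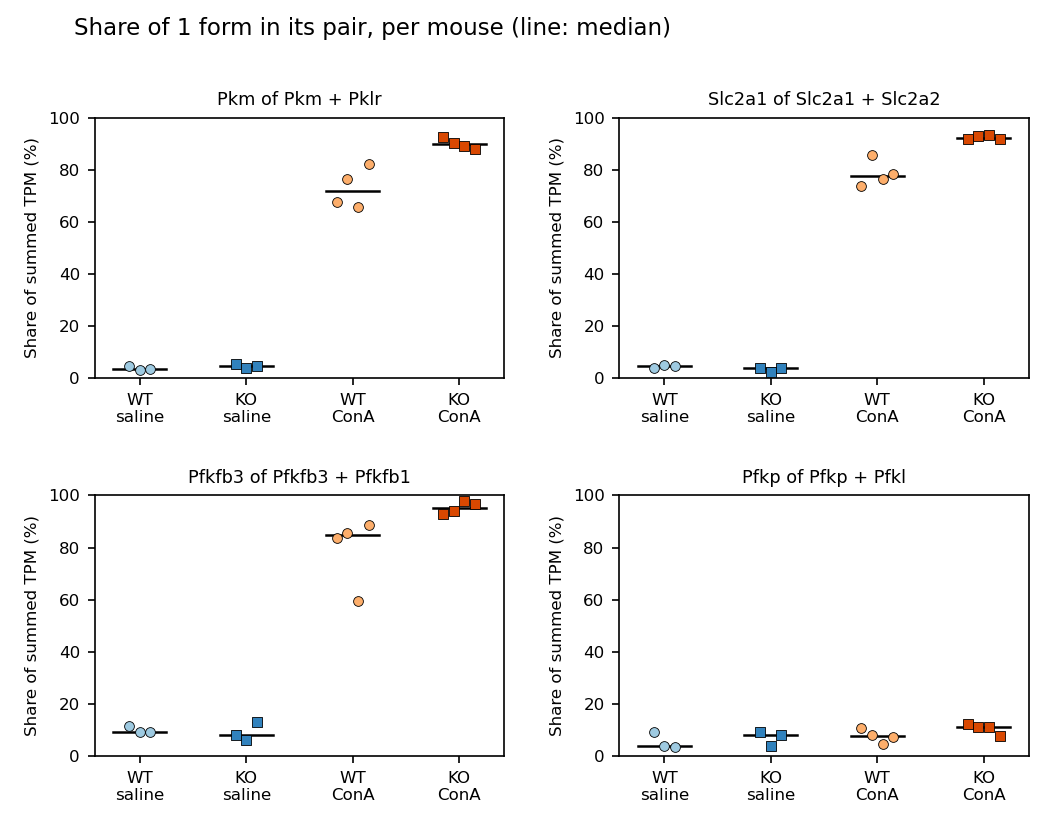
Share (percent of summed TPM, axis 0 to 100) of 1 form in its pair in each liver, with the group median as a line, for pyruvate kinase, glucose transporters, phosphofructokinase-2 and phosphofructokinase-1 (Pfkp of Pfkp plus Pfkl). The median share of Pkm was 3.52% under saline and 72.0% under ConA in WT mice, beside 4.49% and 89.8% in KO mice.

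Several of these genes are also used by leukocytes, and leukocyte markers moved with ConA. Of 8 neutrophil markers, 7 were called higher after ConA in each genotype (Ly6g was not), where 22% (WT) and 33.9% (KO) of all genes were. Retnlg, Mmp9 and Il1r2 were at 0 to 0.29 TPM in saline livers, and S100a9, Csf3r and Cxcr2 had saline livers under 1 TPM in both genotypes. All of these passed the filter only through the ConA livers, so their calls are no test. That leaves S100a8, at 1.31 to 4.23 TPM in saline and 133.85 to 451.85 TPM in ConA livers. The 8 markers summed to 9.57 to 11.1 TPM (WT) and 5.39 to 10.9 TPM (KO) under saline, and 323 to 567 TPM (WT) and 417 to 961 TPM (KO) under ConA. Il1r2 was at 0 in all 3 livers of WT mice given saline. Of 8 Kupffer cell and macrophage markers, 6 were lower and 0 higher in WT and 4 lower and 1 higher in KO livers. Adgre1, under 1 TPM in every WT ConA liver, passed the WT filter only through the saline livers. Timd4 and Vsig4 passed it only through the saline livers in both genotypes. Of all genes tested, 31% (WT) and 30.7% (KO) were called lower. The sum of the 8 was 70.2 to 120.5 TPM (WT) and 30.8 to 66.4 TPM (KO) under saline, and 8.99 to 36.9 TPM (WT) and 10.9 to 29.6 TPM (KO) under ConA. The 7 T and NK cell markers summed to at most 8.96 TPM, and the sinusoidal endothelial markers to 13.1 to 48.8 TPM. Of 9 hepatocyte markers, 6 were lower and 1 (Tat) higher in WT, and 6 lower and 2 (Tat and Apob) higher in KO livers, with a median log2 difference of -0.71 in WT and -0.78 in KO livers. In WT livers G6pc and Slc2a2 differed by -3.97 and -4.24. The part of any of these cell types in the changes above was not tested.

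Between KO and WT saline livers, 6 of the 30 members tested were called, where 19.2% of all 10459 genes were (6.3% higher, 12.9% lower); the share of members, 20%, is that of the background. Higher in KO were G6pc (148 to 179 against 117 to 122 TPM; 0.40, SE 0.10, adjusted p = 0.0318), Gapdh (0.41, adjusted p = 0.0349) and Pklr (0.37, adjusted p = 0.0497). Lower were Slc37a4 (134 to 142 against 178 to 193 TPM; -0.40, SE 0.08, adjusted p = 0.0224), Pgk1 (-0.60, adjusted p = 0.0445) and Gbe1 (-0.41, adjusted p = 0.0495). The ranges of the groups were apart for 17 of the 30 members, against 42.3% of all genes, and no member differed by more than 0.64 on the log2 scale.

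These saline calls changed when livers were averaged or left out. With WT saline replicates 2 and 3 averaged 0 members were called by limma (11 at an unadjusted p under 0.05), and the same count of 0 came without WT saline replicate 2, without WT saline replicate 3 or without KO saline replicate 1, beside 1 without KO saline replicate 2 and 15 (3 higher, 12 lower) without KO saline replicate 3. With each library rescaled by its median ratio 5 members were called, 4 higher and 1 lower, in place of 3 and 3. Over all genes, 659 of 2009 calls were higher in KO saline livers as deposited and 744 of 1515 after rescaling, and the median difference was -0.10 as deposited. Hk1, Hk2 and Hk3 stayed under the filter on low values in both saline groups and were not tested. Sinusoidal endothelial markers were called higher for 5 of the 7 genes tested in KO saline livers, and erythroid markers summed to 2769 to 17128 TPM there against 1623 to 3862 TPM in WT saline livers (0 of 5 tested called by limma, 1 at an unadjusted p under 0.05). Their part in these differences was not tested.

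Between KO and WT livers after ConA, 2 of the 33 members were called, Slc2a1 and Pkm, both higher in KO livers, where 0.428% of all 10519 genes were called (0.342% higher, 0.0856% lower). The Slc2a1 values given above were 2.54-fold higher in mean TPM (1.3, 95% interval 0.84 to 1.76, adjusted p = 0.0369). For Pkm the ratio was 1.86 (0.87, 95% interval 0.55 to 1.2, adjusted p = 0.0369), with every KO ConA liver above every WT ConA liver. Both calls depended on single livers: the count was 1 (Slc2a1) without WT ConA replicate 1 or without KO ConA replicate 1, and 0 without any 1 of the other 6 ConA livers, without replicate 3 of both ConA groups (16 at an unadjusted p under 0.05) and with each library rescaled (15 at an unadjusted p under 0.05). Over all genes, 36 of 45 calls were higher in KO livers as deposited and 12 of 25 after rescaling.

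Ranges were apart in 12 of the 33 members, against 10.5% of all genes tested. KO ConA livers were wholly above WT ConA livers for Fbp1, Pcx, Slc2a1, Pfkl, Pfkfb3, Tpi1, Pkm and Ldha, and wholly below for Pck2, Slc37a4, Pfkfb1 and Gys2. The 10 of these that were not called had adjusted p values of 0.0667 to 0.349. The largest absolute difference among these 10 was -1.23 for Pfkfb1 (95% interval -1.81 to -0.65), followed by 0.93 for Pfkfb3 (95% interval 0.30 to 1.57) and -0.83 for Gys2 (95% interval -1.27 to -0.39). When all 14 libraries shared 1 estimate of the spread, 10 members were called, 6 higher and 4 lower. G6pc and Pck1, which fell most among the glucose production genes, overlapped between the genotypes after ConA, with intervals of -1.0 to 0.63 and -0.56 to 0.36. Neutrophil markers, whose sums overlapped between the 2 ConA groups, were called for 0 of 8 genes by limma (4 at an unadjusted p under 0.05), with a median log2 difference of 0.53; their part in the Slc2a1 and Pkm differences was not tested.

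**Figure D4:**
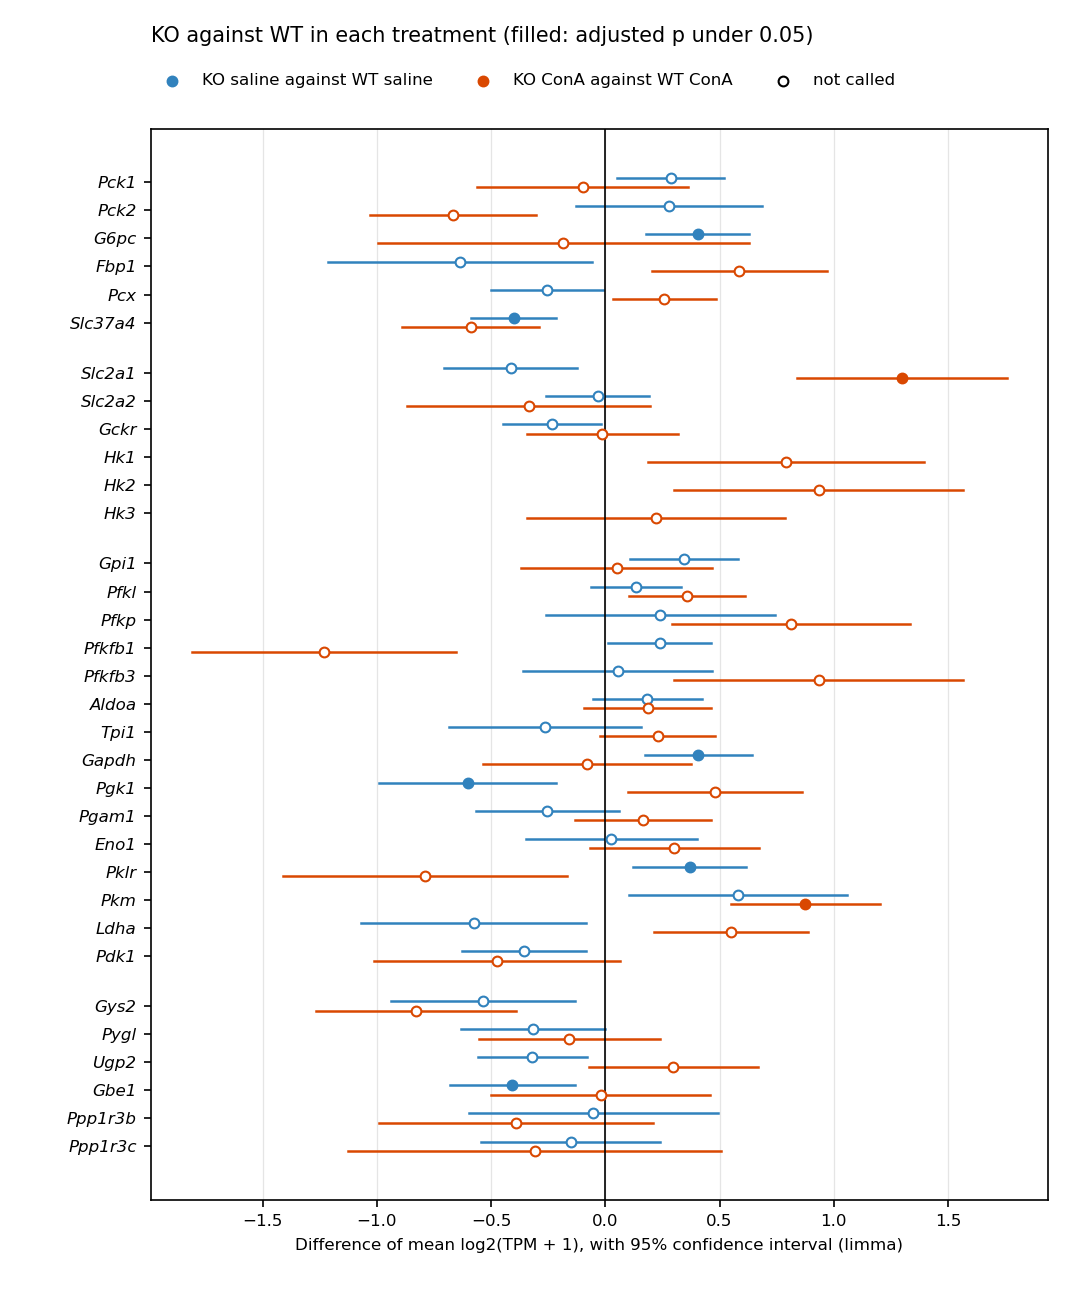
Difference of mean log2(TPM + 1) between KO and WT livers for each gene (x axis) after saline (blue) and after ConA (red), with 95% confidence intervals from limma; filled points had an adjusted p under 0.05. Slc2a1 (1.3) and Pkm (0.87) are the filled points after ConA, and Hk1, Hk2 and Hk3 have no saline point because they were under the filter.

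The difference between the ConA changes of the 2 genotypes was tested as an interaction over all 14 libraries, in which 7 of the 33 members were called (5 higher, 2 lower), against 4.78% of all 11327 genes (2.64% higher, 2.14% lower); the median over all genes was 0.14. The change of Slc2a1 was larger in KO livers by 1.71 on the log2 scale (SE 0.28, adjusted p = 0.0115). It kept its call in 21 of 22 alternatives, the exception being the fit without WT saline replicate 3 (adjusted p = 0.0518). The other members whose change was more positive in KO livers were Fbp1 (1.22, adjusted p = 0.0414), Ldha (1.13, adjusted p = 0.0342), Pgk1 (1.08, adjusted p = 0.0355) and Pcx (0.51, adjusted p = 0.0471). More negative in KO livers were Pfkfb1 (-1.47, adjusted p = 0.0319) and Pck2 (-0.95, adjusted p = 0.0435).

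For Fbp1, Ldha, Pgk1 and Pcx, KO livers were the lower group on average under saline and the higher group after ConA (log2 differences of -0.64, -0.58, -0.60 and -0.26 under saline, and of 0.59, 0.55, 0.48 and 0.26 under ConA). The Pkm change differed by 0.30 (95% interval -0.26 to 0.85, adjusted p = 0.486), and the G6pc change by -0.59 (95% interval -1.59 to 0.42, adjusted p = 0.442). Only 1 member was called with WT saline replicates 2 and 3 averaged, without WT saline replicate 2, without KO saline replicate 1, without KO saline replicate 2 or without KO ConA replicate 4. The count was 0 by limma without WT saline replicate 3 (10 at an unadjusted p under 0.05), 2 without KO ConA replicate 2, 4 without KO ConA replicate 1 and 2 (1 higher, 1 lower) with each library rescaled.

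Genes of the same routes outside the 33 were counted from lists by function, with genes of smallest p in the WT comparison named. Of 12 tested further isozymes of glycolysis and fructose use, 2 rose and 7 fell in WT livers. Among those that fell were Pfkm (-1.56, adjusted p = 1.68e-05) and Eno3 (-0.83, adjusted p = 0.000836). Pfkfb4, counted as a rise in WT livers, passed the filter only through the ConA livers. Ldhb, counted as a fall, passed it only through the saline livers in both genotypes, so the calls of Pfkfb4 and Ldhb are no test. Of 12 genes that supply carbon to gluconeogenesis, 9 fell and 0 rose, among them the glycerol-3-phosphate dehydrogenase Gpd1 (-3.18, adjusted p = 2.5e-06) and the mitochondrial carriers Slc25a10 (-2.41, adjusted p = 1.16e-05) and Slc25a11 (-1.52, adjusted p = 3.39e-05). Of 17 further glycogen genes, 2 rose and 5 fell, a smaller share than the 53% of all genes called. The muscle-type synthase Gys1, counted as a rise, had WT values of 0.58, 0.44 and 0.66 TPM after saline. After ConA its WT values were 4.39, 4.34, 4.27 and 5.73 TPM. Gys1 passed the filter only through the ConA livers in both genotypes, so a call of this gene is no test. The phosphorylase kinase subunit Phka2 fell by 2.11 in WT livers (adjusted p = 5.59e-06). In KO livers these 3 lists gave 1 higher and 8 lower of 11, 1 higher and 9 lower of 12, and 5 higher and 7 lower of 18, where 64.6% of all genes were called.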

How the data were processed

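Libraries from 14 livers were sequenced as single-end 50-base reads. The submitters' processing notes name Bowtie2, RSEM 1.3.1 and GRCm38.p6, whereas the study's methods name STAR and HTSeq, so the counting behind the values is uncertain. The deposited TPM values were made by the authors, 1 file per liver, over 17656 genes with 2 decimals, and sum to 1000000 per liver; read depth is unknown, and no interval for counting error can be given. The members, gene lists and motifs were chosen with earlier results of these data known. Every member is named, by role, and other lists are given by counts with the 3 genes of smallest p in WT livers, of which some are not reported here.

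Genes at 1 TPM or more in at least as many livers as the smaller group has were fitted as log2(TPM + 1) with limma 3.58.1 in R 4.3.3 (lmFit, eBayes with trend), on the 2 groups compared, or on all 14 livers for the interaction of genotype and ConA. P values were adjusted by Benjamini-Hochberg over all genes tested. The code was tested on simulated data. Results were recomputed with 0.1 added in place of 1, a 5 TPM filter or no filter, rescaled libraries, 1 shared fit, robust eBayes, a replicate block, WT saline replicates 2 and 3 averaged, and each liver left out. Gene positions and promoters are from RefSeq (GRCm38.p6; 17604 of 17656 gene identifiers matched), transcripts and exons from GENCODE vM21.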

Additional observations from a re-analysis of the deposited data

Results flagged for a closer look

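Single livers stood far from the others of their group in 5 of the 66 member and group combinations of 4 livers, where chance gives about 1 in 20. Hk1 was at 6.78 TPM in WT ConA replicate 1, against 3.04 to 3.66 in the other 3, and at 4.28 TPM in KO ConA replicate 4, against 8.65 to 9.48. Pygl in WT ConA replicate 1 was at 109 TPM, against 64.5 to 72.0, and Aldoa in WT ConA replicate 3 was at 500.3 TPM, against 394 to 398. Pfkp was at 7.64 TPM in KO ConA replicate 4, against 12.2 to 13.1. These 5 values were kept in all results of the report.

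The change after ConA differed between genotypes, by the interaction test in limma, for 7 members. It was more positive in KO livers by 1.71 for Slc2a1, 1.22 for Fbp1, 1.13 for Ldha, 1.08 for Pgk1 and 0.51 for Pcx on the log2 scale, and was -1.47 for Pfkfb1 and -0.95 for Pck2.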

How the results depend on the processing

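The calls between ConA and saline livers held best: 518 of 521 repeated member results stayed called or stayed uncalled in WT livers and 483 of 492 in KO livers. No called member changed sign in any of the 5 comparisons. Among members not called in WT livers, Gapdh, Eno1, Gbe1 and Ppp1r3c changed sign in some alternatives. The counts between genotypes moved. For KO against WT saline (6 members) they were 2 with no filter, 0 with all 14 libraries in the fit, 0 when replicates 2 and 3 of WT saline were averaged, and 0 to 15 when 1 liver was left out. For KO against WT after ConA (2 members) they were 0 with no filter, 0 rescaled, 10 with all 14 libraries, 0 with replicate 3 of both ConA groups left out (an alternative added after seeing the data) and 0 to 1 when 1 liver was left out. For the interaction (7 members) they were 3 with no filter, 2 rescaled, 1 with the 2 livers averaged and 0 to 8 when 1 liver was left out. The cause was not tested.

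A replicate block gave 27, 29, 9, 3 and 6 called members in the order of the report (WT ConA, KO ConA, KO against WT saline, KO against WT after ConA, interaction). The labels do not say whether replicate numbers pair the livers. Deviations of same-numbered livers correlated at -0.273 to 0.422 over 19 pairs, 6 of them over 0.1, the highest between replicate 3 of WT ConA and of KO ConA. TPM keep no read depth, so the error of values under about 1 TPM, such as Hk2 in saline livers, is unknown.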

Other observations

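Pyruvate use and export moved beside the glycolytic genes. Of 12 tested genes of pyruvate transport and oxidation, 3 rose and 8 fell after ConA in WT livers, and 6 rose and 7 fell of 14 in KO livers. The lactate exporter Slc16a3 (MCT4), counted as a rise, was at 0.08 to 0.36 TPM in saline and 5.52 to 18.1 TPM in ConA livers. Its difference is given without a test, since Slc16a3 passed the filter only through the ConA livers. Pdk4 did so too in both genotypes, and Pdk3 and Pdp1 did so in KO livers, so a call of these genes is no test. In WT livers Pdk3 and Pdp1 stayed under the filter, so the numbers of rises in the 2 genotypes cannot be compared. In WT livers the mitochondrial pyruvate carrier subunit Mpc2 fell by 1.41 (adjusted p = 8.87e-06), and the pyruvate dehydrogenase kinase Pdk2 fell by 2.01 (adjusted p = 1.15e-05).

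Of 18 regulators of glucose metabolism, 3 rose and 8 fell in WT and 7 rose and 5 fell in KO livers. Irs1 in both genotypes and Ppargc1a in WT passed the filter only through the saline livers. Nr4a1 in KO passed it only through the ConA livers. Mlxipl (ChREBP, the carbohydrate-response factor) fell by 1.39 (adjusted p = 2.87e-05) and the glucagon receptor Gcgr by 1.79 (adjusted p = 2.96e-05), whereas Cebpb, an acute-phase transcription factor, rose by 1.17 (adjusted p = 3.7e-05). Of 8 genes of the pentose phosphate pathway, 2 rose and 3 fell in each genotype. H6pd rose by 1.04 (adjusted p = 0.000192) and Pgd by 0.75 (adjusted p = 0.000876), and Pgls fell by 0.74 (adjusted p = 0.00311) in WT livers. All p values are from limma and adjusted over all genes tested, and 53% of them were called in the WT and 64.6% in the KO comparison.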
